A study of Mus musculus with 51 samples.

Results

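Fibroblast cultures labelled HMGN5 WT were compared with fibroblast cultures labelled HMGN3 WT. Both groups are primary mouse embryonic fibroblasts (MEFs), the mixed connective tissue cells that grow out of a minced mouse embryo, and neither group carries a knock out. Each is the wild-type control of a different knock out in the study, which measured RNA on Affymetrix arrays in primary MEFs, SV40 transformed MEFs and MIN6 cells. The members were chosen by their titles and were 3 HMGN5 WT arrays and 3 HMGN3 WT arrays, 6 of the 51 arrays in the series. Autosomal genes alone are described. For both groups the labels give the strain C57BL/6 and a growth medium of DMEM with 10% FCS. A retroviral infection followed by puromycin is attached to all samples in the labels, primary cultures included, but no construct is named for these 6 arrays. The age of the embryos, the litter, the passage and the sex are not given in the sources used here. Nothing in the labels says that the 3 arrays of a group came from separate cultures or embryos. The p-values rest on the spread between arrays within groups, pooled over the 18 primary MEF arrays, which may be technical. They treat the 3 arrays of a group as independent, and that was not tested. The set of embryos, the culture, the handling and the hybridization cannot be told apart from the label.

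A fibroblast keeps a record of where in the body it arose. Hox genes, which lie in clusters in the order in which they act along the body axis, are expressed in fibroblasts in patterns that differ between sites, and factors such as Prrx1, Shox2, Foxc2 and the Irx genes mark limb, body wall, somite and organ mesenchyme. A MEF culture holds cells of many such sites, and their proportions depend on what was dissected and which cells grew. In these bulk samples, fewer cells of a type and less RNA per cell cannot be told apart.

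To set the labelled cell type beside the data, 14 fibroblast markers were read, and all 14 lay above the filter level. That level is low: 17 of 18 macrophage and leukocyte markers were kept by it too, so passing it does not identify a cell type. The summed linear intensity of the fibroblast markers was 23789 to 24605.1 in the HMGN5 WT arrays, against 26040.8 to 27351 in the HMGN3 WT arrays. Xist RNA was low on the log2 scale (2.40 to 2.78 in HMGN5 WT, 2.65 to 2.73 in HMGN3 WT) and the Y-linked Eif2s3y was high (6.40 to 6.59 in HMGN5 WT, 6.28 to 6.50 in HMGN3 WT) in all 6 arrays. Array profiles correlated at 0.996 to 0.9978 within a group and at 0.9924 to 0.9943 between the groups, over probe sets. The 3′ minus 5′ signal of the Actb control probe sets, a sign of RNA length, was 0.36 to 0.46 in HMGN5 WT, against 0.22 to 0.28 in HMGN3 WT, and its part in the differences below was not tested. The same measure for Gapdh overlapped, at -0.23 to -0.14 in HMGN5 WT and -0.23 to -0.18 in HMGN3 WT.

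4 upstream sequences are shown because the results turn on these genes. They hold the 250 bases before the gene start on the gene's strand, from RefSeq (assembly GRCm38.p6), 5′ to 3′. Rarb encodes a retinoic acid receptor that is itself a classic target of retinoic acid, and was among the genes most above HMGN3 WT in HMGN5 WT. Its region is chr14:16575477-16575726 (minus strand). Capitals mark the match to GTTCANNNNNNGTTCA, a direct repeat of the kind that retinoic acid receptors bind, which starts 52 bases before the gene start.
Rarb: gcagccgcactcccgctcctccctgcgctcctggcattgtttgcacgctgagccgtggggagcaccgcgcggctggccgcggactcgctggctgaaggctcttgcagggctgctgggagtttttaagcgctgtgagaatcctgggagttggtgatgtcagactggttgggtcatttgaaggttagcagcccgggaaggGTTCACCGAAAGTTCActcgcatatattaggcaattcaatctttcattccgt
On either strand, 22 of 32851 RefSeq upstream windows of 250 bases hold that motif, or 0.067%. Hoxa5 and Hoxa11 lie in the same cluster and differed in opposite directions. The Hoxa5 region is chr6:52204588-52204837 and the Hoxa11 region chr6:52245811-52246060, both on the minus strand. Capitals mark the homeodomain core ATTA on either strand, which reads TAAT where it lies on the other strand. It was present 3 times before Hoxa5 and 1 time before Hoxa11.
Hoxa5: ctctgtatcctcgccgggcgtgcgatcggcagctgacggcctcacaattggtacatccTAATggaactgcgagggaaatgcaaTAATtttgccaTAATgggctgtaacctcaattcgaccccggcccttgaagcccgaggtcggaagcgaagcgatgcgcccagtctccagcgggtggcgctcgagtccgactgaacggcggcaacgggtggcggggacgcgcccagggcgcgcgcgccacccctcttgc
Hoxa11: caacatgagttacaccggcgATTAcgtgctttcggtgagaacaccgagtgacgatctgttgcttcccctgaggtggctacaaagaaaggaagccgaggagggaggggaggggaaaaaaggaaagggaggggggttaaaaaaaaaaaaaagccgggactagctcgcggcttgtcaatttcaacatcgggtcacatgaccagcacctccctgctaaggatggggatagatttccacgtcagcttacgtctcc
That short core is in 54.9% of the windows. The final region, chr14:51090827-51091076 (plus strand), lies before Ang, the gene with the largest difference in either direction, and RefSeq gives 1 of the 2 Rnase4 entries the same start and end.
Ang: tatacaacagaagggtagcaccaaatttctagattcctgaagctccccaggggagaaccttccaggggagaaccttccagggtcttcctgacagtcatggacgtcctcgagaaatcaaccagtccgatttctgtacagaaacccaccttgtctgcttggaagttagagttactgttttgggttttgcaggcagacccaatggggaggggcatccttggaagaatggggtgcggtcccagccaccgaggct
A match to a motif describes the letters and does not show a site in use.

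Expression differed widely between these control groups. Of 13232 autosomal genes tested, 2283 passed the test (17.3% called; limma, Benjamini-Hochberg adjusted p below 0.05). In HMGN5 WT 1315 genes were higher (9.94%) and 968 were lower (7.32%). These shares of all genes are the ones to set beside each list count below. Of the 2283 called genes, 598 differed at least 1.5-fold (4.52% of the genes tested), 250 of them higher (1.89%) and 348 lower (2.63%). The arrays of the groups did not overlap in 2256 of the 2283 called genes and in 4827 of the 13232 tested genes (36.5%). The median difference over all genes was 0.02 on the log2 scale, where 1 unit is a 2-fold change, and all differences below are HMGN5 WT minus HMGN3 WT. The median SD within a group was 0.077 in HMGN5 WT and 0.089 in HMGN3 WT. The number of higher genes was 870 without HMGN3 WT replicate 2 and 742 without HMGN3 WT replicate 3.

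Among the 15 largest rises were genes of retinoic acid signalling, body position and cartilage matrix. Rarb had log2 intensities of 4.72, 4.92 and 4.63 in HMGN5 WT, against 2.34, 2.50 and 2.17 in HMGN3 WT. The groups were far apart, with a difference of 2.42 ± 0.12 (SE), or 5.33-fold, and an adjusted p of 6.2e-09. Hoxa5, a homeobox gene of the neck and upper trunk, had 6.88, 7.22 and 7.04 in HMGN5 WT, against 4.99, 4.53 and 4.58 in HMGN3 WT. All HMGN5 WT arrays were higher, by 2.35 ± 0.17 (5.09-fold, adjusted p 3.8e-07), and its other probe set was called in the same direction. Rspo3, a secreted protein that amplifies Wnt signals, had 5.10, 5.64 and 5.24 in HMGN5 WT, against 3.36, 2.86 and 2.72 in HMGN3 WT. It differed by 2.34 ± 0.25 (adjusted p 1.3e-05) without overlap. Acan, the main proteoglycan of cartilage, had 4.48, 4.85 and 4.73 in HMGN5 WT, against 2.46, 2.54 and 2.51 in HMGN3 WT, a difference of 2.18 ± 0.21 (adjusted p 4.5e-06). Mgp, the matrix Gla protein that restrains calcification, had 10.97, 12.38 and 11.90 in HMGN5 WT, against 9.94, 9.95 and 9.89 in HMGN3 WT. The HMGN5 WT arrays were all higher but spread over more than 1 unit, and the difference was 1.82 ± 0.30 (adjusted p 0.00061).

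The other rises of this size had less of a common role. Wdfy1, an endosomal adaptor protein, differed by 2.70 ± 0.38 (adjusted p 0.00013), the largest called rise, and all 4 of its probe sets were called higher. AA467197, which is not annotated with a role here, rose by 2.48 ± 0.37. Enpep, the membrane aminopeptidase that cleaves angiotensin II, had 4.43, 5.39 and 4.82 in HMGN5 WT, against 2.43, 2.35 and 2.50 in HMGN3 WT. It was higher in every HMGN5 WT array, by 2.45 ± 0.18 (adjusted p 2.9e-07). Gzmd, a granzyme (a serine protease of killer lymphocytes), rose by 1.98, the calmodulin-dependent phosphodiesterase Pde1a by 1.75 and the drug efflux pump Abcb1a by 1.73. Limch1, an actomyosin regulator, rose by 1.79. Ror1, a receptor for Wnt5a, had 4.86, 5.81 and 5.26 in HMGN5 WT, against 3.74, 3.46 and 3.25 in HMGN3 WT, and was 1.83 ± 0.29 higher (adjusted p 0.00042).

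The largest falls included genes of matrix and growth factor binding proteins. Ang, the secreted ribonuclease angiogenin, had 2.12, 1.70 and 2.02 in HMGN5 WT, against 6.58, 6.73 and 6.62 in HMGN3 WT. The HMGN5 WT mean lay below the filter level of 1.99, the dimmest level kept, so the gene was at least 4.65 units lower there (measured difference -4.70 ± 0.46, adjusted p 5.9e-06). Both of its other probe sets were called lower too. Dpt, dermatopontin, a small matrix protein that binds decorin, had 4.43, 4.40 and 4.36 in HMGN5 WT, against 6.89, 6.82 and 6.77 in HMGN3 WT, a difference of -2.43 ± 0.14 (adjusted p 4.8e-08). Decorin itself, Dcn, had 6.64, 6.53 and 6.53 in HMGN5 WT, against 8.66, 8.57 and 8.50 in HMGN3 WT, a difference of -2.01 ± 0.16 (adjusted p 9.0e-07). The RNA of both genes was lower in every HMGN5 WT array than in any HMGN3 WT array. Igfbp5, a binding protein of insulin-like growth factors, had 7.30, 7.35 and 7.30 in HMGN5 WT, against 9.61, 9.55 and 9.54 in HMGN3 WT, and differed by -2.25 ± 0.18 (adjusted p 6.5e-07).

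Lgr5, the R-spondin receptor known from intestinal stem cells, had 2.85, 2.32 and 2.72 in HMGN5 WT, against 5.70, 5.51 and 5.41 in HMGN3 WT. It differed by -2.91 ± 0.26 (adjusted p 2.7e-06), while a dimmer probe set of the gene was not called. Car8, a carbonic anhydrase related protein, was at least 2.12 units lower, and Asb5, an ankyrin repeat protein, at least 2.21 units lower (adjusted p 0.012). The complement regulator Cd55 fell by 2.25, the synaptotagmin Syt13 by 2.24 and Rpgrip1, a cilium protein of photoreceptors, by 2.23. Bnc1, a zinc finger protein of mesothelium and keratinocytes, fell by 2.10, the lipocalin Apod by 2.06 and A930005H10Rik by 2.07. Itgbl1, an integrin beta-like secreted protein, fell by 1.89. Ramp3, a partner of the calcitonin receptor family, had 4.99, 4.81 and 4.89 in HMGN5 WT, against 6.74, 6.78 and 6.81 in HMGN3 WT. Its difference of -1.88 ± 0.07 had the lowest adjusted p of the named genes, 3.1e-10.

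**Figure D1:**
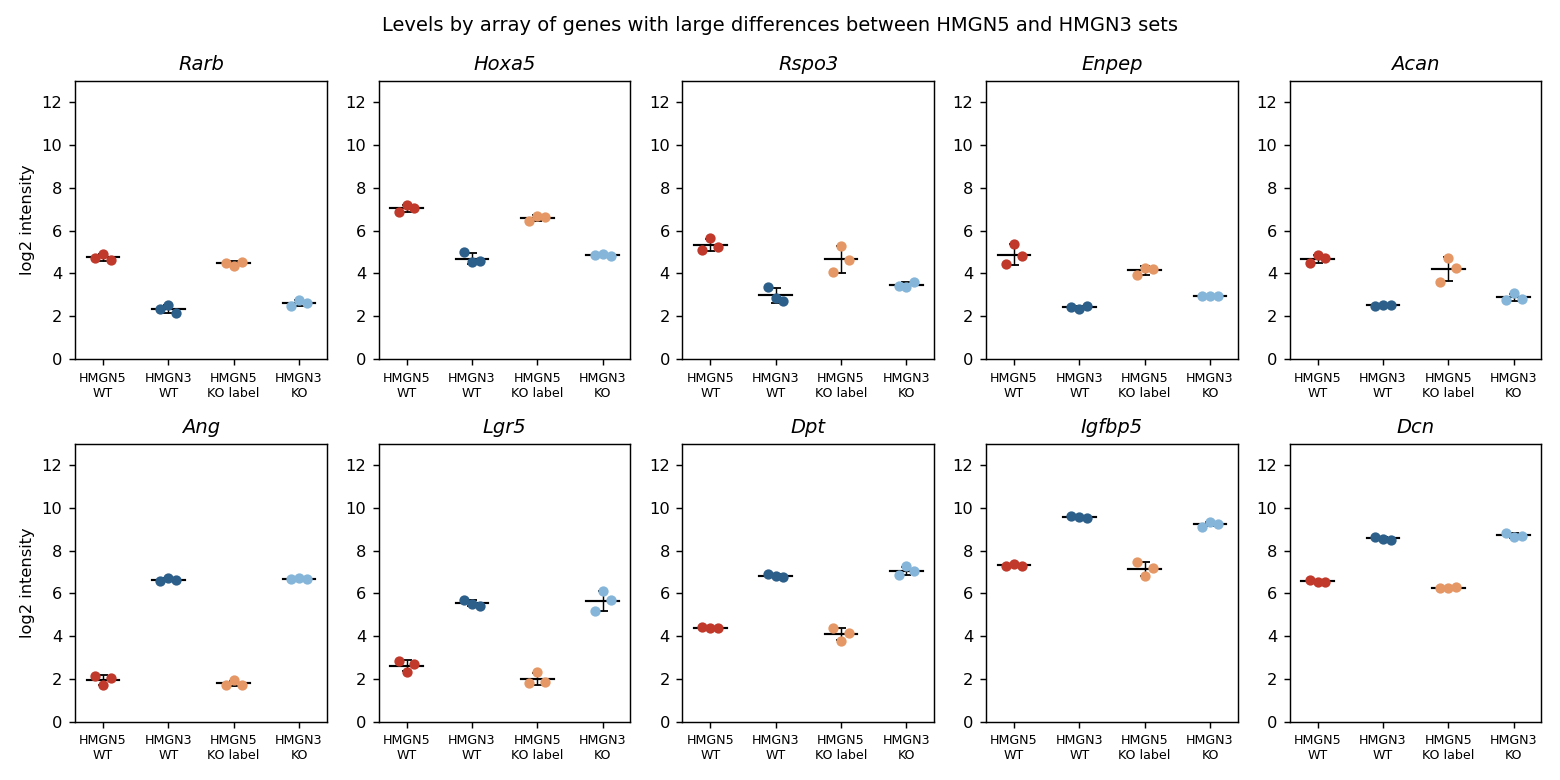
Log2 intensity by array (y axis) of 5 of the largest rises (top) and 5 of the largest falls (bottom) in the HMGN5 WT, HMGN3 WT, labelled HMGN5 knock out and HMGN3 knock out groups (x axis). Points are arrays, long lines are means and bars are SDs (n = 3 each). The HMGN5 WT and HMGN3 WT arrays do not overlap in any panel, and Ang lies near 2 in HMGN5 WT and above 6 in HMGN3 WT.

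The Hox genes differed by their place in the cluster. Of 39 Hox genes, 25 were tested, and 7 were higher and 8 lower in HMGN5 WT, with a median of -0.08. Paralog groups 1 to 5, which act towards the head, had 9 tested genes. All 9 differences were positive, 7 of the 9 were called higher, and the median was 0.68. Paralog groups 6 to 13, which act towards the tail, had 16 tested genes, with 8 called lower, 0 called higher and a median of -0.35. Among these, 1 of 16 differences was positive, that of Hoxa7 at 0.15. The division between 5 and 6 was chosen after the values were seen and carries no test.

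Within the HoxA cluster the sign turned between Hoxa7 and Hoxa9. Hoxa2, which patterns the hindbrain and pharyngeal arches, had 3.02, 2.97 and 3.15 in HMGN5 WT, against 2.17, 2.31 and 2.44 in HMGN3 WT, and rose by 0.74 ± 0.16 (adjusted p 0.0035). Hoxa3, needed for thymus and parathyroid, rose by 0.68. Hoxa5 stood out above both. Hoxa9 differed by -0.24 and was not called. Hoxa10 had 4.36, 3.97 and 4.22 in HMGN5 WT, against 5.19, 4.97 and 5.06 in HMGN3 WT, and fell by 0.89 (adjusted p 0.0055). Hoxa11, a gene of the forearm and uterus, had 3.00, 2.89 and 2.95 in HMGN5 WT, against 4.05, 3.75 and 3.91 in HMGN3 WT, and fell by 0.96 (adjusted p 0.00045). Neither of these posterior genes overlapped between the groups.

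In the HoxC cluster Hoxc4 rose by 0.69 and Hoxc5 by 0.87, Hoxc6 at -0.02 and Hoxc8 at -0.08 were not called, and Hoxc9 fell by 0.46. Hoxc10, a gene of the lumbar region and hindlimb, had 4.71, 4.88 and 4.77 in HMGN5 WT, against 5.87, 5.77 and 5.57 in HMGN3 WT, and fell by 0.95 (adjusted p 0.00033). Hoxc13, which is required in hair and nail, had 2.83, 2.75 and 2.99 in HMGN5 WT, against 4.20, 4.01 and 3.84 in HMGN3 WT. It was the most lowered Hox gene, at -1.16 ± 0.15 (adjusted p 8.5e-05). In the HoxD cluster Hoxd8 fell by 0.68 and Hoxd9 by 0.40, whereas Hoxd13, the last gene of the cluster, was at -0.01 with levels near 2.4 in both groups. HoxB differed least. Hoxb2 rose by 0.47 and Hoxb3 by 0.34, and Hoxb4, Hoxb5, Hoxb6 and Hoxb9 lay between -0.29 and 0.24 without a call. The calls of Hoxb2, Hoxb3 and Hoxd10 (at least 0.36 lower) were each lost without 1 array. Hoxb2 had an adjusted p of 0.057 to 0.068 without HMGN3 WT replicate 2 or 3 or HMGN5 WT replicate 1. Hoxb3 had 0.051 to 0.102 without HMGN3 WT replicate 1 or 3 or HMGN5 WT replicate 1, and Hoxd10 had 0.054 to 0.133 without any array other than HMGN5 WT replicate 3.

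**Figure D2:**
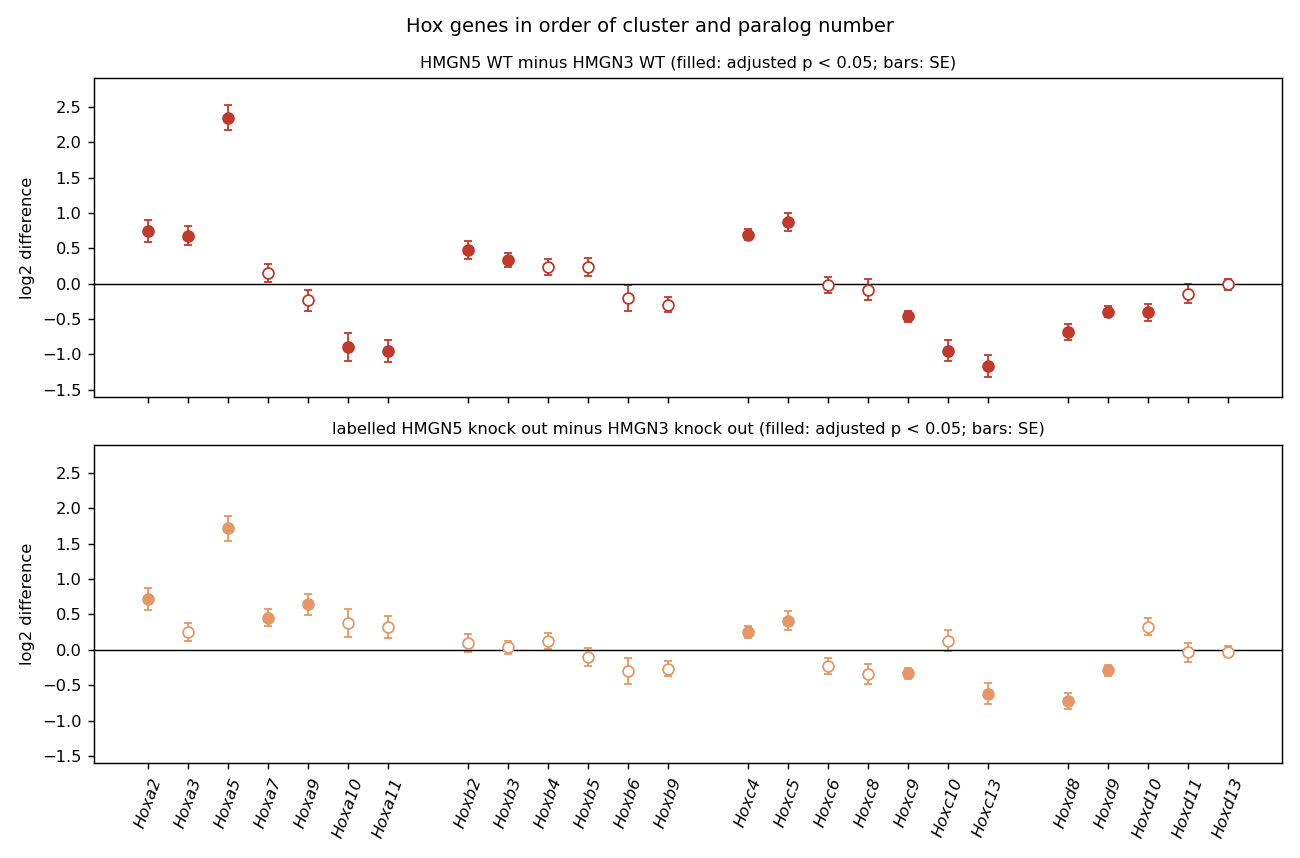
Log2 difference (y axis) of the 25 tested Hox genes in order of cluster and paralog number (x axis), HMGN5 WT minus HMGN3 WT above and labelled HMGN5 knock out minus HMGN3 knock out below. Points are fitted differences, bars are SEs and filled points are called. In the upper panel the 9 genes of paralogs 1 to 5 lie above 0, and 8 of the 16 later ones are called lower.

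Proteins of the Meis, Pbx and Pknox families bind DNA together with Hox proteins. Of 10 tested cofactor genes, 4 were higher and 0 lower in HMGN5 WT. Pknox2 had 4.36, 4.64 and 4.56 in HMGN5 WT, against 3.40, 3.31 and 3.37 in HMGN3 WT, and rose by 1.16 ± 0.11 (adjusted p 4.3e-06). Meis2 rose by 0.63 and Pbx3 by 0.45. Meis1 rose by 0.29, but its adjusted p was 0.073 to 0.164 without any array other than HMGN3 WT replicate 1. By Pearson correlation over the 18 primary MEF arrays, the genes outside the clusters most like Hoxa5 were Acaa2 (0.976), Bmper (0.962) and Speg (0.953). Those most like Hoxc13 were Avpi1 (0.926), Cd55 (0.918) and Tob1 (0.907). The points share 6 groups of 3 arrays, so these values describe group levels above all.

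Of 23 tested transcription factors of limb and body wall, 7 were lower, 3 were higher and 13 were not called in HMGN5 WT, with a median of -0.21. The number called was 6, not 10, without HMGN5 WT replicate 2. Lhx9, a LIM factor of limb and gonad, had 3.48, 2.73 and 3.28 in HMGN5 WT, against 4.56, 4.56 and 4.19 in HMGN3 WT, and fell by 1.27 ± 0.26 (adjusted p 0.0032). Shox2, which shapes the proximal limb bones, had 5.98, 5.47 and 5.68 in HMGN5 WT, against 6.65, 6.65 and 6.47 in HMGN3 WT, and fell by 0.88 ± 0.13 (adjusted p 0.00016). Hand2, which places the posterior signalling centre of the limb bud, fell by 0.83, as did Twist2, a factor of dermal mesenchyme. Prrx1, a marker of limb and body wall mesenchyme, was high in both groups at 8.69, 8.61 and 8.62 in HMGN5 WT, against 9.17, 9.09 and 9.15 in HMGN3 WT, and fell by 0.49. Its paralog Prrx2 fell by 0.61, with an adjusted p of 0.055 without HMGN5 WT replicate 2. Mecom, Tbx3 and Zfhx3 were the members that rose, by 0.42, 0.39 and 0.36.

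Trunk and somite factors went both ways, with 4 of 18 tested higher and 4 lower. Those that rose were the forkhead genes Foxc1 (1.34) and Foxc2 (1.07), which act in paraxial mesoderm, the somite factor Meox1 (1.17) and Sim2 (1.74). Foxc2 had 7.23, 7.26 and 7.29 in HMGN5 WT, against 6.25, 6.16 and 6.15 in HMGN3 WT, with an adjusted p of 9.0e-08. Sim2 had 3.77, 4.67 and 4.32 in HMGN5 WT, against 2.70, 2.48 and 2.38 in HMGN3 WT. All 3 arrays were higher in HMGN5 WT for both genes. The called falls were all Iroquois genes: Irx5 by 1.02, Irx1 by 0.92, Irx3 by 0.84 and Irx2 by 0.74. Irx5 had 4.73, 4.19 and 4.39 in HMGN5 WT, against 5.51, 5.49 and 5.36 in HMGN3 WT.

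Of 16 tested head and anterior factors, 4 were higher and 2 lower. Alx1, a gene of frontonasal mesenchyme, had 2.85, 3.92 and 3.57 in HMGN5 WT, against 2.15, 1.96 and 1.85 in HMGN3 WT, and was at least 1.45 units higher (adjusted p 0.00042). Foxd1 rose by 1.12, Dlx5 by 0.44 and Six4 by 0.50, and Dlx2, a jaw patterning gene, fell by 0.74. Gsc was at least 0.23 units lower. Six4 had an adjusted p of 0.05 without HMGN5 WT replicate 2, and Gsc had 0.053 without HMGN3 WT replicate 2 and 0.058 without HMGN5 WT replicate 2. Of 22 tested inner organ mesenchyme factors, 7 were higher, 1 was lower and 14 were not called, with a median of 0.06. Foxp2, a lung and brain factor, had 4.87, 5.05 and 4.85 in HMGN5 WT, against 3.63, 3.41 and 3.61 in HMGN3 WT, and rose by 1.37 ± 0.23 (adjusted p 0.00061). The orphan receptor Nr2f1 rose by 0.84, Ebf3 by 0.68, Gata6 by 0.65, Gata2 by 0.64 and Foxp1 by 0.60. Isl1, a LIM factor of heart and hindlimb progenitors, was at least 0.96 units lower (adjusted p 0.0052). Wt1 was at least 0.22 units higher, with an adjusted p of 0.14 without HMGN5 WT replicate 2 and of 0.054 to 0.078 without any HMGN3 WT array.

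**Figure D3:**
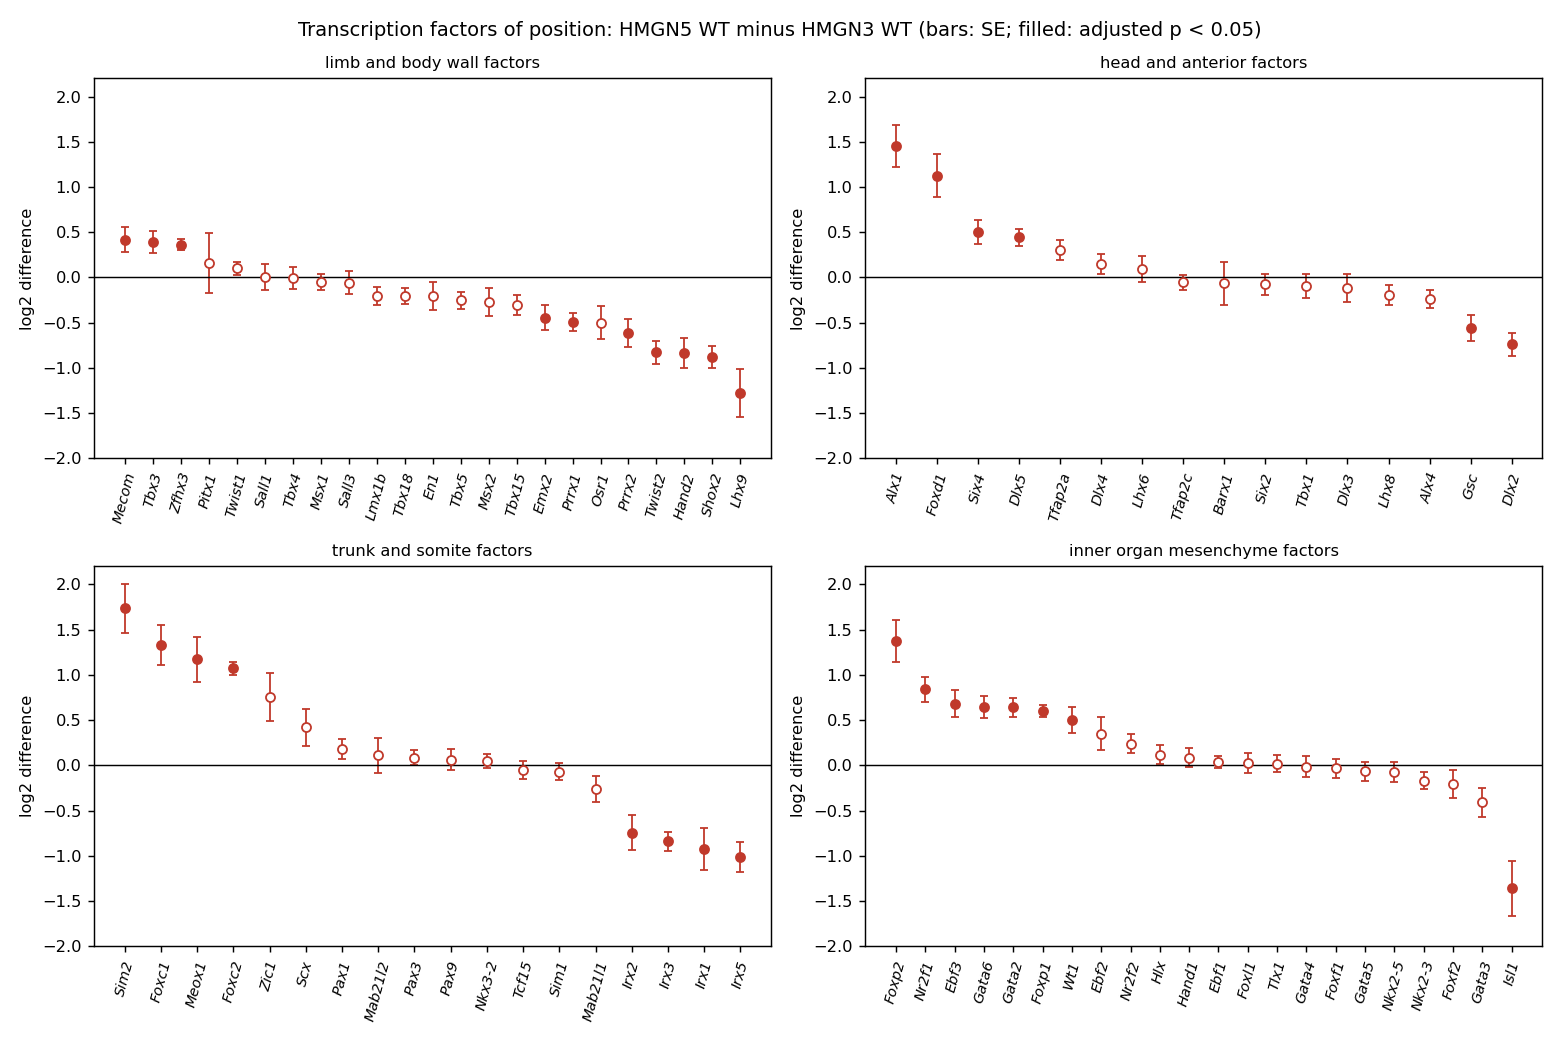
Log2 difference, HMGN5 WT minus HMGN3 WT (y axis), of every tested transcription factor in 4 position lists (x axis, sorted by difference). Points are fitted differences, bars are SEs and filled points are called. The limb and body wall panel holds 7 lower calls and 3 higher ones, and the inner organ panel 1 lower and 7 higher.

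Retinoic acid is made from retinol by dehydrogenases, carried by Crabp proteins and read by Rar and Rxr receptors. Of 17 tested genes of the pathway, 6 were higher and 2 lower in HMGN5 WT, with a median of 0.20. The number called was 5, not 8, without HMGN3 WT replicate 1 or HMGN5 WT replicate 2 or 3. Among the enzymes, Aldh1a3, which makes retinoic acid, had 8.76, 8.88 and 8.79 in HMGN5 WT, against 7.60, 7.46 and 7.50 in HMGN3 WT. It rose by 1.29 ± 0.11 (adjusted p 1.8e-06), and both other probe sets were called higher. Rdh10, the retinol dehydrogenase, rose by 0.36, and Aldh1a2, at 0.43 with overlapping arrays, was not called. Cyp26b1, which breaks retinoic acid down, was at -0.34 and not called.

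The carriers differed in opposite directions. Crabp2, which hands retinoic acid to the nuclear receptors, had 5.73, 6.62 and 6.18 in HMGN5 WT, against 4.40, 4.35 and 4.08 in HMGN3 WT, a rise of 1.90 ± 0.43 (adjusted p 0.0055). Crabp1 had 9.05, 8.28 and 8.70 in HMGN5 WT, against 9.74, 9.72 and 9.66 in HMGN3 WT, a fall of 1.03 that barely passed (adjusted p 0.049). Its adjusted p was 0.096 to 0.176 without any array other than HMGN5 WT replicate 1, 0.059 with no filter and 0.053 after quantile normalization again. Of the receptors, Rarb was the one called higher by the probe set that stood for its gene. Rara (0.09), Rarg (0.29), Rxrb (0.19) and Rxrg (-0.05) were not called. The other probe set of Rarg was called higher, by 0.41 (limma with every probe set on its own, adjusted p 0.026). Rxra fell by 0.21, with an adjusted p of 0.087 without HMGN3 WT replicate 1, 0.102 without HMGN5 WT replicate 2, 0.056 without HMGN5 WT replicate 3 and 0.061 with the compared groups alone in the fit. Dhrs3, a retinaldehyde reductase induced by retinoic acid, rose by 0.63, and its adjusted p was 0.066 to 0.122 when any 1 of the 6 arrays was left out. The receptor corepressor Nrip1 rose by 0.39 (adjusted p 0.00088).

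Signalling ligands and their modulators were among the larger differences. Of 35 tested Wnt genes, 7 were higher and 6 lower, with a median of 0.00. The R-spondin receptors differed in sign: Lgr6 had 5.45, 4.92 and 5.25 in HMGN5 WT, against 3.95, 3.83 and 3.85 in HMGN3 WT, a rise of 1.32, while Lgr5 fell as given above. Wnt4, a ligand of kidney and gonad development, had 3.97, 3.82 and 3.97 in HMGN5 WT, against 5.69, 5.61 and 5.46 in HMGN3 WT, a fall of 1.67 ± 0.15 (adjusted p 3.0e-06). Wnt5b rose by 0.65. Of 28 tested BMP and TGF-beta genes, 6 were higher and 8 lower. Grem1, a secreted BMP antagonist of the limb bud, had 7.55, 7.22 and 7.42 in HMGN5 WT, against 9.29, 9.31 and 9.20 in HMGN3 WT. It fell by 1.87 ± 0.09 (adjusted p 6.2e-09). Id4, a target of BMP signalling, fell by 1.70 and the coreceptor Tgfbr3 by 1.38. The ligands Bmp5 and Tgfb2 rose by 1.32 and 0.90. Bmp4 rose by 1.05, and its adjusted p was 0.073 to 0.177 without any array other than HMGN5 WT replicate 1, 0.054 with no filter and 0.051 with a replicate block.

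Hedgehog and FGF genes gave 2 higher and 4 lower of 22 (27.3% called, against 17.3% of all genes). Ptch1, a receptor and target of hedgehog, rose by 0.85 and the ligand Fgf9 by 0.53. Spry2 and Spry4, feedback inhibitors of FGF signalling, fell by 0.96 and 0.63, and the ligand Fgf7 fell by 0.87. Among 36 tested Eph and guidance genes, 6 were higher and 8 lower. The secreted cues Sema3c (-1.24), Slit3 (-1.22), Ntn1 (-1.11) and Ntn4 (-1.07) and the transmembrane semaphorin Sema5a (-1.29) were lower, and the receptor Epha3 rose by 0.92. Slit2, another secreted cue, was at 0.23 and was not called, while 1 of its 2 other probe sets was called higher. Slit3 had 6.84, 6.84 and 6.87 in HMGN5 WT, against 8.20, 8.04 and 7.99 in HMGN3 WT. Of 24 tested genes of insulin-like growth factors and imprinted loci, 3 were higher and 8 lower. Igf2, a fetal growth factor, had 9.19, 9.92 and 9.61 in HMGN5 WT, against 8.52, 8.41 and 8.41 in HMGN3 WT, a rise of 1.12. Igf1 fell by 1.11, the growth inhibitor Cdkn1c by 1.28 and Dlk1, a membrane protein of preadipocytes, by 1.05.

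Genes of the extracellular matrix, the main product of fibroblasts, differed in both directions. Of 40 tested genes of fibrillar matrix and crosslinking, 15 were higher and 11 lower, and 17, not 26, were called without HMGN3 WT replicate 2 or 3 or HMGN5 WT replicate 3. Col14a1 had 4.48, 4.96 and 4.68 in HMGN5 WT, against 3.17, 2.81 and 3.16 in HMGN3 WT, a rise of 1.66 ± 0.14 (adjusted p 1.8e-06). Col11a1, a collagen of cartilage fibrils, rose by 1.54, Eln, the elastin gene, by 1.45 and the small proteoglycan Ogn by 1.13. Mfap4, an elastic fibre protein, fell by 1.15 and Postn, periostin, by 0.80. Postn had 11.01, 10.53 and 10.76 in HMGN5 WT, against 11.60, 11.55 and 11.54 in HMGN3 WT. Of 15 tested basement membrane genes, 7 were higher and 0 lower. Col15a1 had 5.26, 5.90 and 6.02 in HMGN5 WT, against 4.10, 4.33 and 4.05 in HMGN3 WT, a rise of 1.57 ± 0.21. The broad basement membrane collagen Col4a2 rose by 0.36. Without HMGN5 WT replicate 2 the count fell to 3 genes.

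Of 24 tested matrix proteases and inhibitors, 10 were lower, 3 were higher and 11 were not called. Mmp3, a stromelysin, had 4.25, 3.50 and 3.88 in HMGN5 WT, against 5.35, 5.32 and 5.16 in HMGN3 WT, a fall of 1.40 ± 0.23 (adjusted p 0.00052). Mmp10 fell by 0.71 and the inhibitor Timp3 by 0.75, whereas the gelatinase Mmp2 rose by 0.68 and Adamts12 by 0.92. Mmp13 fell by 1.03, with an adjusted p of 0.054 without HMGN5 WT replicate 3. Among 24 tested cadherins and surface markers, 5 were higher and 6 lower. Cdh10 rose by 1.47, and Thy1, a common surface marker of fibroblasts, had 9.87, 9.84 and 9.81 in HMGN5 WT, against 10.88, 10.80 and 10.82 in HMGN3 WT, a fall of 0.99. S100a4 fell by 0.93. Of 21 tested contractile genes 5 were lower and 0 higher (23.8% called, against 17.3% of all genes), with Myh11, a smooth muscle myosin, the most changed at -0.66; without HMGN3 WT replicate 1 or HMGN5 WT replicate 3 the count was 3. Cartilage and bone genes gave 3 higher and 2 lower of 12, with Acan and Mgp as the largest rises and Sox9 (-0.48) and Omd (at least 0.51 lower) as the falls. Adipogenic genes gave 1 higher and 3 lower of 10, and 2 in all without HMGN3 WT replicate 2 or HMGN5 WT replicate 2. Of 14 fibroblast markers 8 were lower and 1, Col1a2, was higher, with a median of -0.48. The collagen genes Col1a1 and Col3a1 were not called, but a further probe set of each was called higher. These were at 0.40 and 0.94 (limma with every probe set on its own, adjusted p 0.0049 and 0.0075).

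Culture state was read from lists of stress, growth and metabolism. No gene of 23 tested mitosis genes and none of 26 DNA replication genes was called by limma, with 1 and 3 of them at an unadjusted p below 0.05 (29.6% of all tested genes). Without HMGN5 WT replicate 1, 6 mitosis genes were called, and 1 or 2 replication genes were called without HMGN3 WT replicate 1, HMGN5 WT replicate 1 or HMGN5 WT replicate 2. Of 16 tested cholesterol synthesis genes, 11 were lower and 0 higher, with a median of -0.32, and 7 were called without HMGN5 WT replicate 2. Sc5d, the sterol desaturase, had 6.98, 6.75 and 6.80 in HMGN5 WT, against 7.70, 7.59 and 7.51 in HMGN3 WT, a fall of 0.75 ± 0.10 (adjusted p 9.0e-05). Msmo1 fell by 0.69 and Idi1 by 0.59. Their other probe sets split, with 0 of 2 for Sc5d, 0 of 1 for Msmo1 and 1 of 1 for Idi1 called in the same direction.

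Immediate early genes, which respond within minutes to serum and handling, gave 9 lower and 2 higher of 22. Nr4a1, an orphan nuclear receptor, had 6.66, 6.45 and 6.53 in HMGN5 WT, against 8.49, 8.24 and 8.35 in HMGN3 WT. It was clearly lower, by 1.81 ± 0.09 on the log2 scale (adjusted p 6.2e-09). Fosl1 fell by 0.87 and Klf4 by 0.82, while Egr2 rose by 0.77 and Junb by 0.49. Stress response genes gave 7 higher and 3 lower of 27, with the heat shock genes Hspa1b (-0.91) and Hspa1a (-0.86) lower and Trib3 (0.60), Phgdh (0.39) and Psat1 (0.38), targets of the amino acid response, higher. The near-identical Hspa1a and Hspa1b sequences may share signal. Of 24 tested p53 and senescence genes, 5 were higher and 7 lower. Gadd45a rose by 0.94 and Pmaip1 by 0.91, while Perp fell by 0.84 and Btg2 by 0.67. Of the HMGN genes themselves, Hmgn1 (0.03) and Hmgn3 (0.05) were not called. Hypoxia and glycolysis genes gave 4 higher and 1 lower of 22 (22.7% called, against 17.3% of all genes), led by the hexokinase Hk2 at 0.70 and the glucose transporter Slc2a3 at -0.72.

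Of 25 tested chemokines and inflammatory genes, 11 were lower and 3 higher, with a median of -0.32, and 9 were called without HMGN3 WT replicate 2 or 3 or HMGN5 WT replicate 3. Cxcl14 had 4.91, 5.03 and 5.06 in HMGN5 WT, against 6.45, 6.49 and 6.23 in HMGN3 WT, a fall of 1.39 ± 0.28 (adjusted p 0.0026). Ptges, a prostaglandin E synthase, fell by 1.09, Ccl8 by 0.99 and Ccl5 by 0.98. Cxcl12, a stromal chemokine that holds blood progenitors, went the other way with 9.11, 9.21 and 9.19 in HMGN5 WT, against 7.88, 7.87 and 7.83 in HMGN3 WT, a rise of 1.31 ± 0.14 (adjusted p 1.2e-05). Interferon response genes gave 1 higher and 1 lower of 27, with a median of 0.04, against 17.3% of all genes called.

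**Figure D4:**
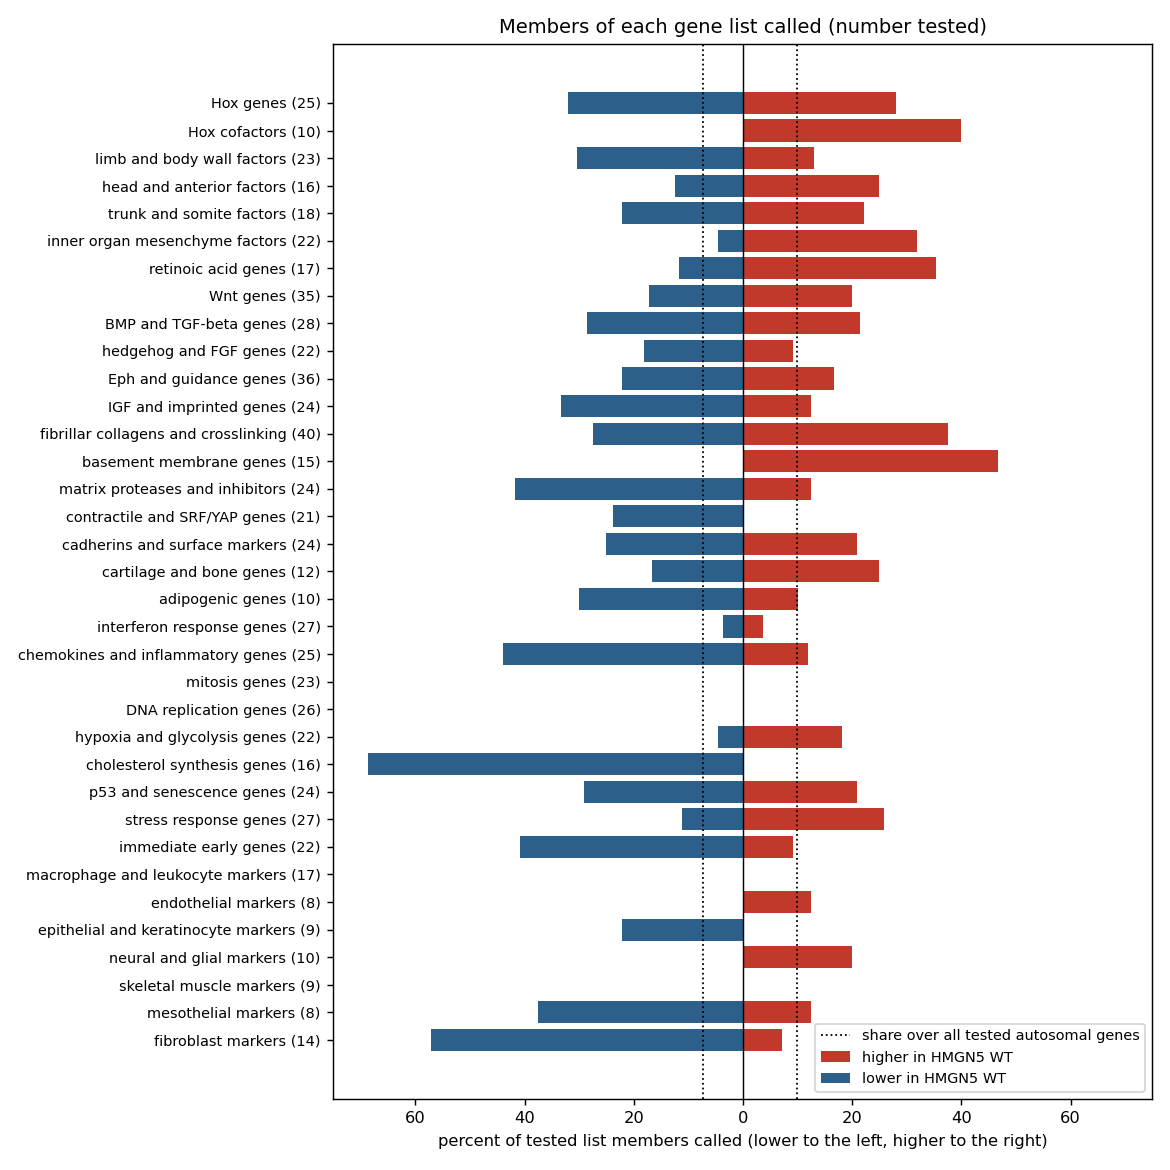
Percent of the tested members of each list (y axis, with the number tested) that were called higher (right, red) or lower (left, blue) in HMGN5 WT against HMGN3 WT (x axis, percent). Dotted lines mark the shares over all tested autosomal genes, 9.94% higher and 7.32% lower. The cholesterol synthesis bar lies wholly to the left (11 of 16) and the basement membrane bar wholly to the right (7 of 15).

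Markers of other cell types differed in level between the groups. The summed linear intensity of 18 macrophage and leukocyte markers was 1699, 913.5 and 1255.1 in the HMGN5 WT arrays, against 1991.6, 1829.3 and 1837.2 in the HMGN3 WT arrays. Of 17 tested members 16 had a negative difference and 11 did not overlap (36.5% of all tested genes did not). The median was -0.56, but 0 were called by limma (3 at an unadjusted p below 0.05). The spread of these markers among the arrays labelled HMGN5 knock out was wide, with sums of 2935.4, 554.9 and 1804.6, and without those arrays in the fit 7 of the 17 were called. The HMGN3 knock out arrays had sums of 2499.1, 1659 and 2164. In each of these groups replicate 1 was highest, replicate 2 lowest and replicate 3 between them. Whether replicate 3 is independent of the others, or equal numbers mark related samples, was not tested. If replicate 3 is not independent, each group holds fewer than 3 independent samples. The p-values would then be too low and the SDs too small. Ptprc, the leukocyte antigen CD45, had 5.24, 4.31 and 4.74 in HMGN5 WT, against 5.94, 5.85 and 5.70 in HMGN3 WT. HMGN5 WT replicate 2, the lowest array for these markers, was the highest of its group for Mgp, Rspo3, Enpep, Ror1 and Crabp2. For each of these genes HMGN5 WT replicate 3 lay between replicates 1 and 2. That order did not hold for every gene, as Wdfy1 had 5.33, 5.02 and 4.80 in HMGN3 WT. The part of leukocyte RNA in the differences of chemokines, Apoe and other genes was not tested. Apoe, which macrophages also make, fell by 1.42, with an adjusted p of 0.051 to 0.075 without HMGN3 WT replicate 2 or 3 or HMGN5 WT replicate 2 or 3.

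The other marker lists were dimmer than the fibroblast markers, and some of their sums did not overlap between the groups. The summed intensity of 16 epithelial markers was 100.2 to 104.9 in HMGN5 WT, against 121.2 to 125.6 in HMGN3 WT, with 7 of the 16 under the filter level in both groups, and Krt18 (-0.93) and Krt8 (-0.60) were called lower. For 10 mesothelial markers the sums were 58.7 to 62.9 in HMGN5 WT, against 87.1 to 93.2 in HMGN3 WT, with 3 under the filter level in both groups, 3 called lower (Bnc1, Upk3b and Krt8) and 1 higher (Wt1). For 14 neural and glial markers they were 271.3 to 281.2 in HMGN5 WT, against 176.3 to 178.8 in HMGN3 WT. Nes, an intermediate filament also found in many cultured mesenchymal cells, led that list with 6.99, 7.15 and 7.12 in HMGN5 WT, against 5.99, 5.96 and 5.90 in HMGN3 WT. The sums of 15 endothelial markers overlapped (186.6 to 200.6 in HMGN5 WT, 183.5 to 188.7 in HMGN3 WT), although Emcn rose by 1.44. The sums of 16 skeletal muscle markers overlapped as well, at 449.2 to 494.8 in HMGN5 WT and 441.7 to 452.7 in HMGN3 WT, and so did those of 7 erythroid markers.

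The same sets were examined in arrays that share none with the comparison above, 3 labelled HMGN5 knock out and 3 labelled HMGN3 knock out, all primary MEFs of the same labelled strain and medium. The extent of the deletions, and whether the probe sets lie in them, is not given in the sources used here. Hmgn3 had 6.22 to 6.27 in the HMGN3 knock out arrays, against 7.48 to 7.59 in HMGN3 WT. The X-linked Hmgn5 itself had 5.59 to 5.84 in the arrays labelled HMGN5 knock out, against 4.80 to 5.21 in HMGN5 WT, so its level goes against the label. Xist spanned 2.60 to 8.72 among the arrays labelled HMGN5 knock out, so these arrays also differ in sex. Within this second comparison the knock outs and the sets of cultures cannot be told apart.

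Of the 13232 genes, 2674 were called between these knock out groups (20.2%), 1638 higher (12.4%) and 1036 lower (7.83%) in the arrays labelled HMGN5 knock out. Among the 2283 genes called between the WT groups, 1465 were called in the same direction here and 4 in the opposite direction. The shared genes were 64.2% of the WT calls and 54.8% of the knock out calls. Of the 598 WT calls of at least 1.5-fold, 472 (78.9%) were called in the same direction. Ang had 1.73, 1.93 and 1.73 in the arrays labelled HMGN5 knock out, against 6.69, 6.71 and 6.67 in HMGN3 knock out. Rarb had 4.50, 4.36 and 4.55 in the arrays labelled HMGN5 knock out, against 2.50, 2.77 and 2.61 in HMGN3 knock out. Hoxa5 had 6.45, 6.69 and 6.62 in the arrays labelled HMGN5 knock out, against 4.87, 4.91 and 4.82 in HMGN3 knock out. These genes kept nearly the levels of the WT arrays of their set.

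Crabp2 differed by 3.29 here, against 1.90 in WT, and the test of that change was not called (1.39 ± 0.60, adjusted p 0.60). It had 5.76, 8.22 and 7.40 in the arrays labelled HMGN5 knock out, against 3.92, 3.50 and 4.11 in HMGN3 knock out. Ramp3 differed by -1.86, Nr4a1 by -1.78 and Cxcl12 by 1.72, all called. Abcb1a, Ror1 and Mgp, at 0.53, 0.83 and 0.81, did not pass here. Asb5 was at 0.35 with levels between 1.21 and 3.90, and was not called. By list, the fibrillar matrix genes called in WT kept their call and direction for 20 of 26, the Eph and guidance genes for 13 of 14 and the retinoic acid genes for 5 of 8. Over all WT calls that share was 64.2%. Of the 7 basement membrane genes called in WT, 0 kept their call and direction. That list had 1 gene higher and 3 lower in the knock out comparison, with a median of 0.14 (0.19 in WT), and Col15a1 was at 0.32 without a call.

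The difference between the sets was then tested against itself, as the knock out difference minus the WT difference. It was called for 53 genes (0.401%), 16 higher (0.121%) and 37 lower (0.28%), with 1006 (7.6%) at an unadjusted p below 0.05. Of the 2283 WT calls, 30 were among them. Of the tested Hox paralogs 6 to 13, Hoxa11 and Hoxc10 were among the 53. Hoxa11 had 3.40, 3.69 and 3.60 in the arrays labelled HMGN5 knock out, against 3.53, 3.07 and 3.14 in HMGN3 knock out, a difference of 0.32 without a call, and the test gave 1.27 (adjusted p 0.019). Hoxc10 gave 1.08 (adjusted p 0.034) and Hoxa10 gave 1.27 without a call (adjusted p 0.078). Of the tested paralogs 6 to 13, 4 were lower and 2 higher in the knock out comparison, against 8 and 0 in WT. Of paralogs 1 to 5, 4 were higher and 0 lower. In the interferon list 25 of 27 genes were called lower in the arrays labelled HMGN5 knock out than in HMGN3 knock out, against 7.83% of all genes. Between the WT groups 1 of 27 was called lower in HMGN5 WT. These counts do not tell which knock out group moved. Oasl2 is among the genes for which the difference itself was called. The number of genes called for this difference ranged from 14 to 109 when 1 array was left out (without HMGN3 knock out replicate 3 and without the array labelled HMGN5 knock out replicate 2).

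**Figure D5:**
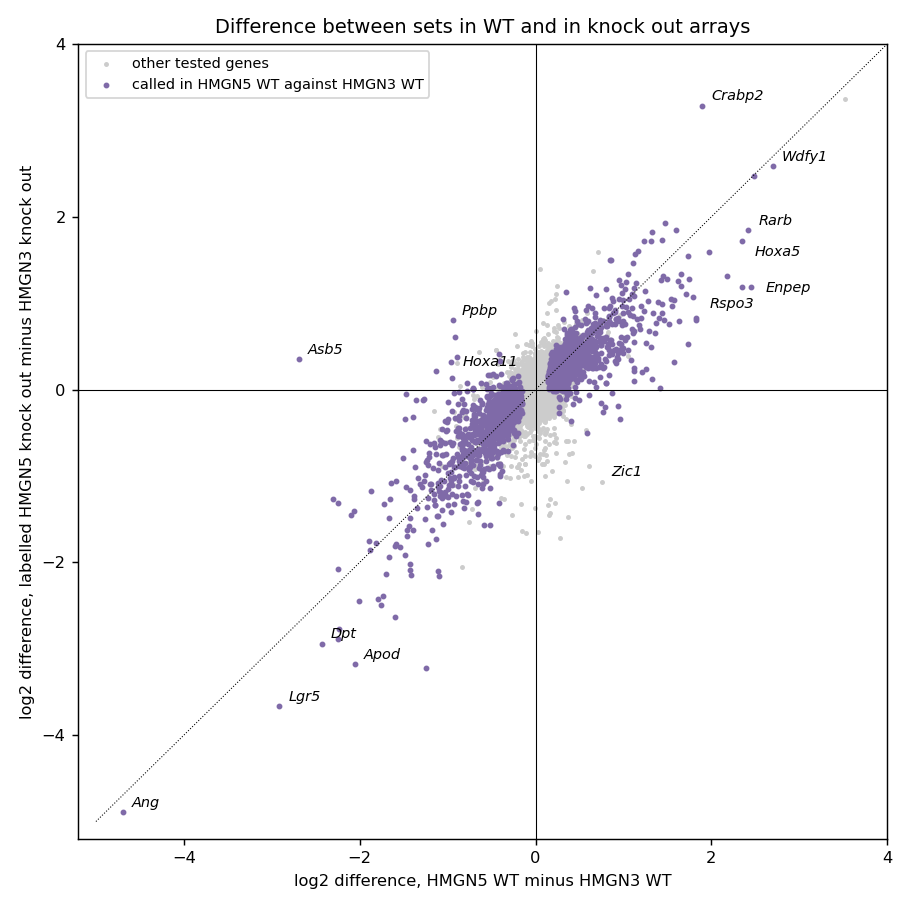
Log2 difference of each tested autosomal gene in HMGN5 WT minus HMGN3 WT (x axis) and in arrays labelled HMGN5 knock out minus HMGN3 knock out (y axis), which share no array. Purple points are the 2283 genes called between the WT groups, grey points the other genes, and the dotted line marks equal differences. Ang and Lgr5 lie at the lower left on both axes, whereas Hoxa11 and Asb5 lie to the left of 0 and slightly above it (0.32 and 0.35 on the y axis).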

How the data were processed

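RNA was measured on Affymetrix mouse arrays. The authors deposited an intensity for each probe set, not on a log scale, computed with RMA per the submitters' processing notes; its version and settings are not given in the sources used here. All 51 value columns were mapped to samples (0 unused) and log2 was taken of the deposited intensities with no further normalization. Median intensity was 5.59 to 5.93 in the 6 WT arrays. No counts or depth exist for arrays, and 3 arrays per group limit the precision.

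Of 45101 probe sets, 64 were controls, 34943 carried 1 gene symbol, 932 several and 9162 none that was used; names came from GEO's platform annotation, updated through RefSeq genes (GRCm38.p6). A probe set was kept where at least 1 group mean reached the 40th percentile of group means (log2 1.99), and the brightest stood for its gene (13660 genes, 13232 autosomal). The 18 primary MEF arrays were fitted with limma 3.58.1 (lmFit, eBayes; R 4.3.3) as 6 group means without covariates. P-values are two-sided and adjusted by Benjamini-Hochberg over all tested genes. An "at least" difference sets the brighter mean against the filter level, which was decided with the values in view. Means not far above that level may be background too, among them those of Rarb, Acan, Enpep and Hoxa2 in HMGN3 WT. The fit was tested on simulated data in which all arrays were drawn independently and all groups had the same spread for a gene. That test does not cover related arrays or unequal spread between groups. Tables used Python 3.11.15 with pandas 2.3.3, numpy 2.4.6 and matplotlib 3.10.9, and the R package data.table in version 1.17.8.

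The groups compared and the gene lists were chosen with earlier results of these data known. Named genes are the 15 largest rises and falls among called genes without overlap, all tested Hox and retinoic acid genes, up to 6 called and 2 uncalled members of each other list, the 6 largest called differences of differences in each direction, and the 3 genes most like the most changed Hox gene in each direction. Mecom, Tbx3, Zfhx3, Irx2, Irx3 and Foxp1 are further called members of their lists, outside this rule and not counted among the named genes. Other genes picked from their values are said to be so. Alternatives changed the filter, the probe set choice, the normalization, the block, the arrays in the fit and each array in turn.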

Additional observations from a re-analysis of the deposited data

Results flagged for a closer look

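For 16 named genes the difference between the sets was unlike in knock out and WT arrays, by a test of the difference itself (limma, adjusted p below 0.05 over all genes). Each value is the knock out difference (labelled HMGN5 minus HMGN3) minus the WT difference (HMGN5 minus HMGN3) on the log2 scale. Higher were Ppbp (1.75), Hmgn3 (1.34), Hoxa11 (1.27), Hoxc10 (1.08), Car8 (1.03), Tmem267 (0.78), Grem1 (0.70) and Ntn4 (0.61). Lower were Oasl2 (-1.84), Zic1 (-1.83), Cpxm2 (-1.49), Epas1 (-1.36), Enpep (-1.26), Irf7 (-1.16), Irgm1 (-0.77) and Bmper (-0.57). The HMGN5 WT means of Ppbp and Car8 lay under the filter level, so their values rest partly on unmeasured levels. Hmgn3 is the gene knocked out in the HMGN3 knock out arrays. Zic1, a factor of dorsal neural tube and somite, had 2.84, 1.80 and 2.70 in the arrays labelled HMGN5 knock out, against 3.33, 3.93 and 3.29 in HMGN3 knock out, and 2.95, 3.89 and 3.45 in HMGN5 WT, against 2.85, 2.67 and 2.51 in HMGN3 WT. Oasl2, an interferon response gene, had 4.79, 5.32 and 4.84 in the arrays labelled HMGN5 knock out, against 6.23, 6.53 and 6.61 in HMGN3 knock out, and 4.67, 5.74 and 5.24 in HMGN5 WT, against 4.99, 4.86 and 4.70 in HMGN3 WT. For Oasl2 every HMGN3 knock out array lay above the HMGN3 WT arrays, while the labelled HMGN5 knock out arrays overlapped HMGN5 WT. Ppbp, a chemokine of platelets, was lower in HMGN5 WT and higher in the arrays labelled HMGN5 knock out, each against its HMGN3 group.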

How the results depend on the processing

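Of 189 called named genes, 159 kept call and direction in all 12 alternatives, and of all 280 named genes 0 reversed. The alternatives that leave out 1 array show less if replicate 3 is not independent of replicates 1 and 2, which was not tested. With every probe set on its own 1477 probe sets were lower in HMGN5 WT and 4016 were called between the knock out groups, counts over more features. With the compared groups alone in the fit 25 genes had a called difference of differences. Leaving out 1 array gave 1567 to 2170 genes between the WT groups, 742 to 1359 higher and 696 to 867 lower, 1819 to 2590 between the knock out groups and 14 to 109 for the difference of differences. Of the 12 arrays, 10 moved that last count by over 1.5 times: it was 17, 20 and 29 without HMGN3 WT replicates 1, 2 and 3, 82, 25 and 17 without HMGN5 WT replicates 1, 2 and 3, 18 and 14 without HMGN3 knock out replicates 2 and 3, and 109 and 15 without the arrays labelled HMGN5 knock out replicates 2 and 3. The share of WT calls that were higher was 57.6%, against 51.7% after quantile normalization again, 51.3% with the compared groups alone and 47.4% without HMGN3 WT replicate 3. A count moved by over 1.5 times in some alternative for 13 of 35 lists. Same-numbered arrays of the WT groups did not deviate together (correlations of 0.0856, 0.0145 and 0.0794). Those of the knock out groups gave 0.140, 0.183 and -0.0613. These values did not show pairing by number between the HMGN5 and HMGN3 sets, though the leukocyte sums had the same order of replicates in each group. Pairing of WT with knock out arrays of a set was not tested. With the replicate block 2090 WT calls were made, 2043 of them shared, with 2466 between the knock out groups and 47 for the difference of differences. Without the arrays labelled HMGN5 knock out 2407 WT calls were made. With Xist level as a covariate (an alternative added with the data in view, as was leaving out those arrays) there were 2197 calls between the knock out groups and 40 for the difference of differences. The cause of these changes was not tested.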

Other observations

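Ang lies beside Rnase4, another secreted ribonuclease, and RefSeq lists a shared start for them. Rnase4, which was chosen after its values were seen, averaged 8.99 in HMGN5 WT and 9.26 in HMGN3 WT, a difference of -0.27 ± 0.10 that was not called (adjusted p 0.080), while Ang fell below the filter level. Among the nearby genes of chromosome 14 in RefSeq's order, also chosen after their values were seen, Gm26782 was at -1.65 and Rpgrip1 at -2.23, and Supt16 (0.89), Rab2b (0.59) and Mettl17 (0.57) were higher. Calls of at least 1.5-fold were also counted in stretches of 30 consecutive tested genes, a count added after seeing the data. The largest number was 8, on chromosome 6 across the HoxA cluster. The stretch that holds Ang had 7, and so did the highest stretches of chromosomes 2, 3, 5, 8 and 17.

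Ifi202b, an interferon-inducible gene chosen after its values were seen, had a high level in some arrays and was not called. It had 7.28, 1.47 and 6.30 in HMGN5 WT, against 1.42, 1.51 and 1.54 in HMGN3 WT, so that replicate 2 of HMGN5 WT and all HMGN3 WT arrays lay under the filter level of 1.99, and the HMGN5 WT mean was at least 3.02 units higher (adjusted p 0.069). In the knock out comparison it had 1.36, 6.91 and 5.87 in the arrays labelled HMGN5 knock out, against 1.46, 1.35 and 1.25 in HMGN3 knock out. Again 1 array of the first group was low. In HMGN5 WT and in the arrays labelled HMGN5 knock out, replicate 3 lay between replicates 1 and 2. The high arrays of a group may therefore not be separate cultures, which was not tested. The 3 HMGN1 WT arrays had 0.99, 1.56 and 1.70.

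The HMGN1 WT group, another set of primary MEF controls, lay on different sides for different genes. It averaged 4.28 for Rarb, near HMGN5 WT (4.75) and far from HMGN3 WT (2.34), and 9.49 for Igfbp5, near HMGN3 WT (9.57) and far from HMGN5 WT (7.32). For Ang it averaged 5.68, and for Hoxa5 6.01, between the other two groups (1.95 in HMGN5 WT and 6.64 in HMGN3 WT for Ang, 7.05 in HMGN5 WT and 4.70 in HMGN3 WT for Hoxa5). These levels were not tested.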
